A study of Sus scrofa with 3 samples.

Results

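The extracellular matrix genes of porcine intestinal epitheliocyte (PIE) cells were described across 3 arrays: collagens, matrix metalloproteinases (MMPs), tissue inhibitors of metalloproteinases (TIMPs), ADAMTS proteases, a laminin chain, integrins, and the matrix proteins FN1, SPARC, DCN and BGN. Members were the probes whose name on the array follows the gene symbols of these families, with 1 gene per symbol, represented by its brightest probe. The selection used names and no measured difference, although the families were chosen with earlier results of these data known. It gave 51 genes with 120 probes, of 6391 named genes and 43603 probes in all. They comprised 17 collagen chains, 12 MMPs, 2 TIMPs, 4 ADAMTS proteases, 1 laminin chain (LAMA4), 11 integrin entries and the 4 other matrix proteins. One integrin entry, ITGB1BP2, encodes an integrin-binding protein and no integrin chain. The array labels the probes of lumican (LUM) by gene number, so that LUM and 13 further symbols of the same pattern, named only through an accession or gene number, stood outside the selection.

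PIE cells are a non-transformed line from the gut epithelium of an unsuckled newborn pig. All cultures were grown for 3 days on plates coated with type I collagen in medium with fetal calf serum, and all were then challenged for 12 h with ETEC PAMPs, which are pathogen-associated molecular patterns from enterotoxigenic E. coli. The ETEC culture received no lactobacilli, the TL2937+ETEC culture received Lactobacillus jensenii TL2937 for 48 h before the challenge, and the TL2766+ETEC culture received Lactobacillus plantarum TL2766 for 48 h before it. Bacteria were washed away before the challenge, per the series' design text. Each group had 1 culture and 1 one-colour array, so no difference below has a replicate check, and none was tested. All 3 arrays lay on 1 slide, and the position of an array, its culture and its group cannot be told apart. Cells without the challenge were not analysed here.

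Collagens are trimers of chains in which glycine recurs at regular steps along the triple helix, and the fibril-forming, network-forming and transmembrane types build different parts of the matrix. MMPs and ADAMTS proteases cut matrix proteins, TIMPs block MMPs, laminins are trimers of the basement membrane, and integrins are receptors of 1 alpha and 1 beta chain that bind cells to collagen, fibronectin, vitronectin and laminin. In the gut, epithelial cells rest on a basement membrane of laminin and type IV collagen, above connective tissue in which fibroblasts make most of the fibrillar collagen.

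Intensities below are the scanner software's processed signal, scaled to the same 75th percentile on each array. A probe counted as measured where the software's flag put it well above background. The lowest scaled intensity with that flag was 12.9 on the ETEC array, 11.6 with TL2937 and 11.8 with TL2766, and series of 3 values below keep this order. A probe's intensity depends on its sequence, so levels of different genes were not compared. On the 3 arrays, 60.9% to 62.5% of gene spots were well above background and no spot was saturated. Spots printed 5 times for each of 25 probes had a median SD of the log2 difference of 0.087, 0.078 and 0.084 in the 3 comparisons. The error that the software itself assigns to a pair of signals was larger, with a median of 0.20 on the log2 scale over the members. Neither value covers the spread between cultures.

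The labelled cell type was set against marker genes. Of 10 epithelial markers 7 were on the array, and only KRT8 and OCLN were well above background on all 3 arrays. The epithelial keratin KRT18 and the tight-junction gene CLDN4 were well above background on no array, EPCAM had 18 probes of which 0, 2 and 0 were measured, and KRT8 lay near the lowest measured intensity at 19.9, 18.0 and 23.9. The tight-junction gene OCLN was at 1141, 922 and 967. The adhesion gene CDH1, at 17.2, 25.1 and 8.63, was above the flag on the ETEC and TL2937+ETEC arrays, and the microvillus gene VIL1, at 21.5, 8.27 and 14.2, on the ETEC and TL2766+ETEC arrays. Of 10 fibroblast and mesenchyme markers 4 were on the array, and all 4 were measured on all 3 arrays. VIM was at 251748, 242642 and 252338 and S100A4 at 2899, 3105 and 2819. The other mesenchyme markers were dimmer, THY1 at 82.9, 72.9 and 77.6 and PDGFRB at 30.1, 30.5 and 33.0. All 6 endothelial markers were on the array and 5 were measured on all 3 arrays, among them PECAM1 at 86718, 84015 and 85368 and CDH5 at 60391, 56573 and 55877. Of 4 smooth muscle markers on the array 3 were measured on all 3 arrays, with ACTA2 at 53731, 41874 and 47431. Of 4 leukocyte markers on the array CD14 alone was measured on all 3 arrays, and PTPRC was measured on none. Summed over a list's markers, the intensity was 1223, 998 and 1041 for epithelium, 254761, 245851 and 255267 for mesenchyme, 77914, 70133 and 77400.0 for smooth muscle and 161622, 155663 and 157719 for endothelium. Most of the mesenchyme sum came from VIM. The sums compare the arrays within a list and not the lists with each other. Thus 2 of 7 epithelial markers on the array were measured on all 3 arrays, CDH1 and VIL1 on some, and KRT18, CLDN4 and EPCAM, by its brightest probe, on none. The counts measured on all 3 were 4 of 4 for mesenchyme, 5 of 6 for endothelium, 3 of 4 for smooth muscle and 1 of 4 for leukocytes. Most epithelial markers did not bear out the label, and the cells are called PIE cells here. In such bulk RNA, fewer cells of a type and less RNA per cell cannot be told apart.

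The probes behind the main values are shown here because each gene is read through 60 bases of its transcript. The glycine codons of the collagen triple helix, GGN at every 9th base, ran through the whole of 2 of the 49 collagen probes, against 6 of all 43603 probes (0.0138%). The next 4 probes are written 5′ to 3′ with these GGN codons in capitals. They fill 7 of 7 positions in COL8A1 and in COL7A1, 6 of 7 in COL17A1 and 5 of 7 in COL6A3. In COL6A3 the GGN steps shift by a single base before the last capitals. Those capitals mark a tested position and may not be a glycine codon.
COL8A1: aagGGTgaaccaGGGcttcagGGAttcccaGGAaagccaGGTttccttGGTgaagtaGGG
COL7A1: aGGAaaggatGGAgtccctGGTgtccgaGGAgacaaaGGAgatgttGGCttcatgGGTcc
COL17A1: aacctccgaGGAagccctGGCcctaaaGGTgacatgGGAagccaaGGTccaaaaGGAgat
COL6A3: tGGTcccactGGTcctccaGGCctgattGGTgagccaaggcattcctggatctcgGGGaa

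The members that differed most from the ETEC array were read by the following probes, of which the first 30 bases are given in lower case.
COL21A1: ggaaaggcaactccacagatcctaggatgt
COL1A2: cacgtctggttaggagaaactatcaatggt
COL10A1: taaaaatggcacccctgtcatgtacaccta
COL5A3: atatttatcatctcctatgactgtggagcc
MMP7: ttcactaggcactcactgcctccatccttg
ADAMTS1: cattttgatgaagaaacaattctatgtatt
ITGB8: cctaccgacgtgagaaacctgaagaaataa

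The ITGB3 pair is shown because its 2 probes gave different results, described with the integrins. The brighter ITGB3 probe shares a run of 30 bases with a probe that the array names CYP24A1, given in capitals, and the dimmer probe starts with the lower-case bases.
ITGB3, shared run of the brighter probe: GTTGCCGTGAGCTGTGGTGTAGGTTGCAGA
ITGB3, dimmer probe: gatgttctccaatatcacctttctcaatga

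Of the 51 members, 33 (64.7%) were well above background on all 3 arrays, against 75.5% of all named genes. Another 3 members, COL4A4, MMP7 and ITGB1BP2, were measured on 1 or 2 arrays, and 15 (29.4%) had no probe well above background on any array, against 18.7% of all named genes. Those 15 were COL4A3, COL4A5, COL6A2, MMP1, MMP3, MMP12, MMP17, ADAMTS5, ADAMTS16, ADAMTS20, ITGA4, ITGA11, ITGAL, ITGB2 and ITGB6. Measured members made up 13 of 17 collagens, 7 of 12 MMPs, both TIMPs, 1 of 4 ADAMTS proteases, LAMA4, 5 of 11 integrins and the 4 other matrix proteins. Genes that neighbour each other on the chromosome in assembly Sscrofa11.1 fell on both sides: MMP1, MMP3 and MMP12, which lie together on chromosome 9, were all below the flag, while MMP7 and MMP20 lie side by side on the same chromosome and were measured, MMP7 on 2 arrays and MMP20 through probes that the array names MMP25. Matching by RefSeq accession gave MMP20 for those probes and left the other 29 of 30 members with a matched accession under their array names.

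The members as a whole differed little from the ETEC array. More of them were lower than higher, which with TL2937 also held for all named genes. With TL2937 the median log2 difference of the 34 members measured on both arrays was -0.13, against -0.041 over all named genes measured on both. With TL2766 it was -0.074 over 33 members, against 0.00086 over all genes. A difference below 0 was found for 22 of 34 members (64.7%) with TL2937, where 59.4% of all genes lay below 0, and for 22 of 33 (66.7%) with TL2766, where 49.7% did. Both comparisons share the ETEC array. In the direct comparison of TL2766+ETEC with TL2937+ETEC the median was 0.036 over 33 members and 0.043 over all genes.

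**Figure D1:**
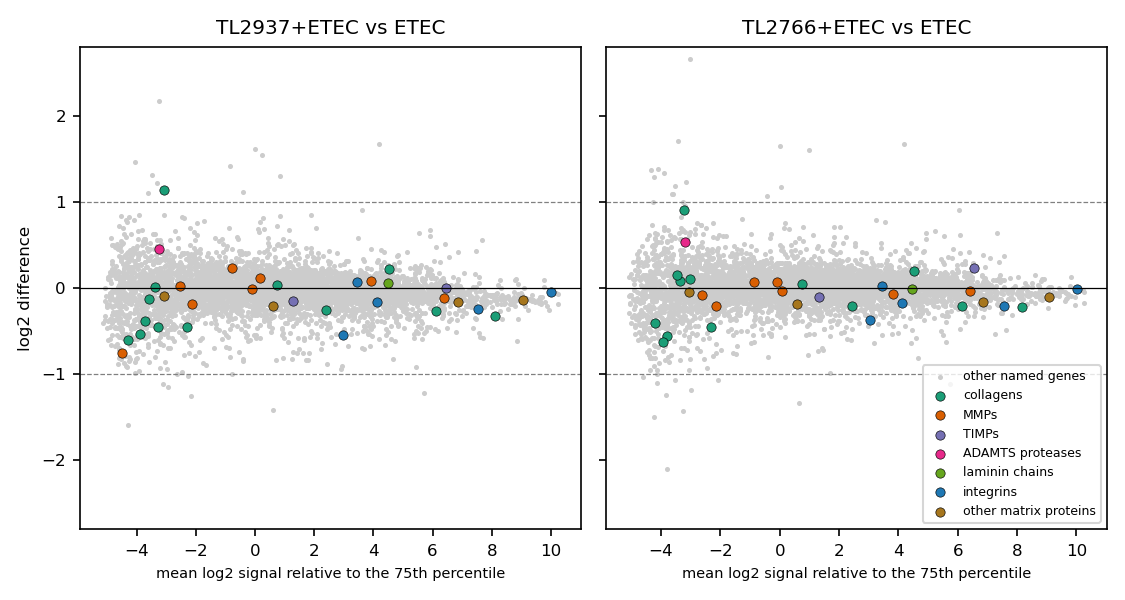
Log2 difference from the ETEC array (vertical axis) against the mean log2 signal relative to each array's 75th percentile (horizontal axis) for every named gene measured on both arrays, for TL2937+ETEC on the left and TL2766+ETEC on the right. Grey points are other named genes, coloured points are the members by family, and dashed lines mark 2-fold. Most members lie within the grey band, and COL21A1 is the member that lies above the upper dashed line with TL2937 and just below it with TL2766.

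A single member, COL21A1, was at least 2-fold from the ETEC array in the comparison with TL2937, where it was higher. At this fold 0.246% of all named genes were higher. No member was at least 2-fold lower with TL2937 (0.144% of all genes), none was 2-fold higher or lower with TL2766 (0.33% and 0.247%), and none differed 2-fold between the lactobacillus arrays (0.205% higher and 0.0818% lower with TL2766). At 1.5-fold, MMP7 and COL10A1 were lower with TL2937 (2.26% of all genes were) and COL5A3 was lower with TL2766 (1.53%), while COL21A1 was the member higher in each (1.09% and 1.44%). At 1.2-fold, 9 members were lower with TL2937 (12.3% of all genes) and 2 were higher (7.24%), and 5 were lower with TL2766 (8.95%) and 2 higher (8.06%). Of the 9 lower with TL2937, 7 were collagens, which made up 13 of the 34 measured members. Of the 5 lower with TL2766, 4 were collagens, which made up 13 of the 33. Several of these collagens were dim and moved inside 1.2-fold under another background correction, as given below with the collagens.

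COL21A1 encodes the chain of type XXI collagen, a fibril-associated collagen. Its scaled intensity was 37.8 with ETEC alone, 83.6 after TL2937 and 71.1 after TL2766. The ETEC array was the lowest of the 3, and the lactobacillus arrays lay close together. The difference was 1.14 on the log2 scale with TL2937 (2.21-fold, scanner error 0.24) and 0.91 with TL2766 (1.88-fold, scanner error 0.24), just inside and just outside the 2-fold limit. The other 2 COL21A1 probes were not well above background on any array, so the result rests on 1 probe. With another background correction, which adds a constant and so shrinks differences of dim probes, the TL2937 difference was 0.45 and no longer 2-fold, and with the mean over its 3 probes it was 0.92.

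Of the 4 measured chains of type I and type V collagen, which form fibrils, 3 were at least 1.2-fold lower with TL2937 and 2 with TL2766. Of all genes, 12.3% and 8.95% were at least 1.2-fold lower. This group of chains was not among the families set beforehand, and its counts only describe these genes. The fibrillar collagen COL27A1, described below, lay within 1.2-fold in both comparisons. COL1A2, a chain of type I collagen, stood at 41.9 with ETEC alone, 32.1 after TL2937 and 28.5 after TL2766. It was highest on the ETEC array, and its log2 differences were -0.38 and -0.55 with TL2937 and TL2766. COL5A3, a chain of type V collagen, which helps to start and limit fibrils, was at 39.2, 27.0 and 25.4 in the same order, again highest without lactobacilli, with differences of -0.54 and -0.63. The other type V chains were far above the lowest measured intensity, COL5A1 at 2786, 2343 and 2416 and COL5A2 at 36654, 30420.0 and 31651. Their differences were smaller, -0.25 and -0.21 for COL5A1 and -0.27 and -0.21 for COL5A2. All 3 COL5A1 probes and all 4 COL5A2 probes were lower in both comparisons.

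Of the 4 measured network-forming and beaded-filament collagens among the members, all were at least 1.2-fold lower with TL2937 and 2 with TL2766. Of all genes, 12.3% and 8.95% were. This group was not among the families set beforehand, and the 1.2-fold limit was added after seeing the data. Its counts only describe these genes. Under the background correction with an added constant, COL10A1 and COL6A1 lay within 1.2-fold with TL2937, and COL10A1 and COL6A3 with TL2766. COL8A1, a short-chain network collagen, was at 147201 with ETEC alone, 117950.0 after TL2937 and 126505 after TL2766, with differences of -0.32 and -0.22, and its second probe was lower in both as well. COL10A1, a network collagen best known from growth cartilage, was at 29.8, 19.6 and 22.5, highest on the ETEC array and lowest with TL2937, with differences of -0.61 and -0.41 (scanner errors 0.32 and 0.30). The type VI chain COL6A3 was at 113, 83.0 and 83.2 by its brightest probe, with nearly the same value on both lactobacillus arrays and differences of -0.45 and -0.45. Of its 9 probes only the brightest was measured on all 3 arrays. Another COL6A3 probe, at 5.75, 2.45 and 33.5, was above the flag on the TL2766+ETEC array alone, against the direction of the brightest. A pair of COL6A3 probes that share 60 bases was below the flag on the ETEC array. Both were above it with TL2937, and 1 of them with TL2766 too. With the mean over all 9 probes the TL2766 difference was 0.23, of the opposite sign to the brightest probe. COL6A1, another type VI chain, was at 57.5, 42.1 and 61.9: low with TL2937 and not with TL2766, with differences of -0.45 and 0.11. COL6A2 was not measured on any array. Of the basement-membrane chains among the members, COL4A3 and COL4A5 were not measured. COL4A4, which lies next to COL4A3 on chromosome 15 in assembly Sscrofa11.1, was above the flag on the TL2937+ETEC array alone, at 12.9. COL4A1, a basement-membrane chain outside the selection, was measured on all 3 arrays, lay within 1.2-fold in both comparisons and is described below.

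COL7A1, the anchoring-fibril collagen that ties the basement membrane to the tissue beneath, was one of the collagens on the higher side with both strains. Its intensity was 10358 with ETEC alone, 12048 after TL2937 and 11843 after TL2766, lowest without lactobacilli, and its differences were 0.22 and 0.19. All 4 of its probes were higher in both comparisons, from 0.21 to 0.28 with TL2937 and from 0.19 to 0.59 with TL2766. The transmembrane collagen COL17A1 of hemidesmosomes was at 41.7, 38.3 and 46.5, with differences of -0.12 and 0.16 on either side of 0. Its other 2 probes were not measured on any array, and with the mean over all 3 the differences were 0.16 and 0.29. The large fibrillar collagen COL27A1 was at 793, 813 and 818, with differences of 0.036 and 0.046, the first of which was -0.017 under the background correction with an added constant. COL14A1, a fibril-associated collagen, was at 45.6, 46.1 and 48.4 by its brightest probe, and the sign of its TL2937 difference, 0.014, changed under 2 of the 4 other scalings. The other 2 measured COL14A1 probes, of 11, gave -0.87 and -0.23 with TL2766, against 0.084 by the brightest. The probe at -0.87 was at 28.0, 26.6 and 15.3. A probe that shares 46 bases with it was at 2.90, 2.83 and 15.0, above the flag on the TL2766+ETEC array alone.

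Over the 13 measured collagens the median log2 difference was -0.27 with TL2937 and -0.21 with TL2766. With TL2937 7 were at least 1.2-fold lower, 1 was higher and 5 lay within 1.2-fold. With TL2766 4 were lower, 1 was higher and 8 lay within 1.2-fold. Of all genes, 80.4% and 83% lay within 1.2-fold. Under the background correction with an added constant the collagen medians were -0.17 and -0.10. With the mean over all probes of a gene the TL2766 median was 0.041, on the other side of 0. The added constant brought COL1A2 to -0.12 and -0.26, COL5A3 to -0.14 and -0.20, COL10A1 to -0.17 and -0.068, COL6A3 to -0.28 and -0.19, and COL6A1 to -0.20 and 0.035. COL17A1, which is as dim, was at -0.20 and -0.10 there, so that its TL2766 difference changed sign.

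**Figure D2:**
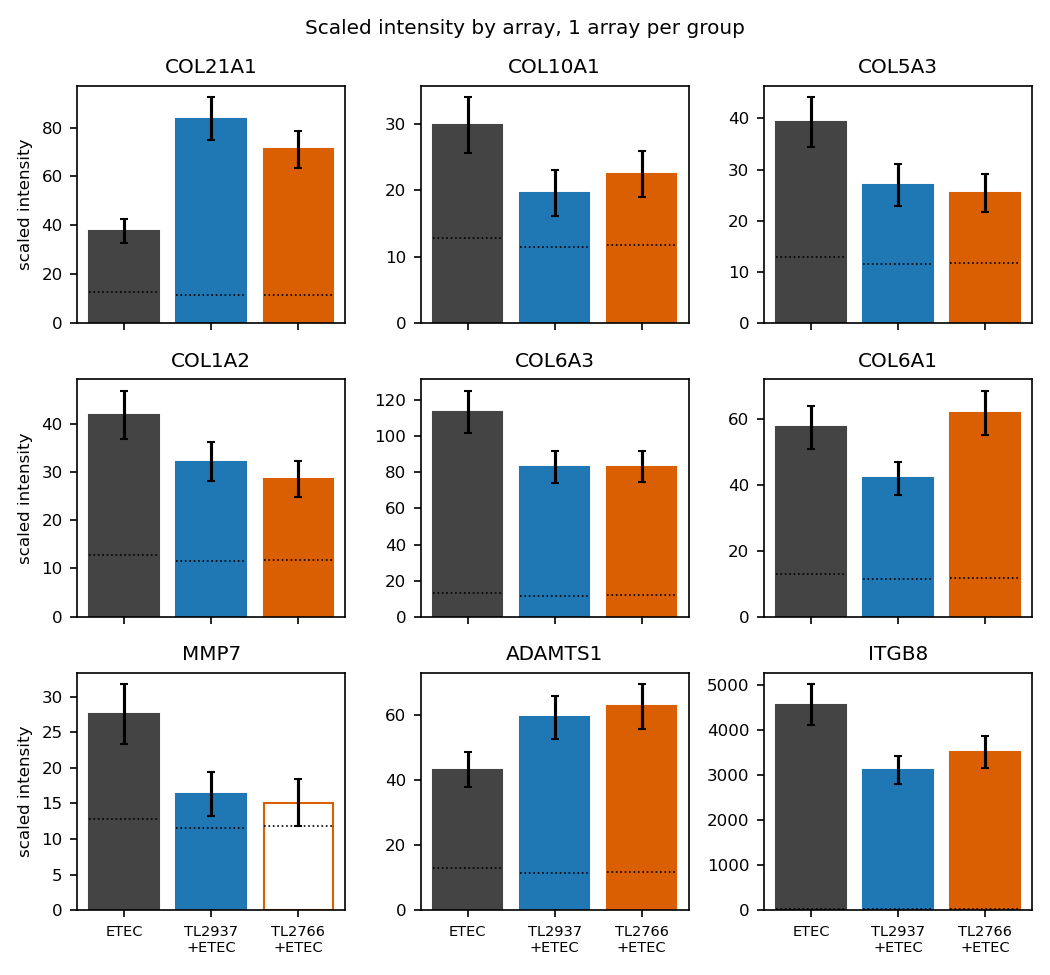
Scaled intensity (vertical axis, from 0) on each of the 3 arrays (horizontal axis) for 9 members described in the text, with error bars from the scanner software. The dotted line is the lowest intensity well above background on that array, and an open bar was not well above background. COL21A1 and ADAMTS1 are lowest on the ETEC array, COL6A1 is low on the TL2937+ETEC array alone, and the other 6 are highest on the ETEC array.

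The brightest probes of the 4 other matrix proteins were all within 1.2-fold of the ETEC array and below 0 in both comparisons. FN1, fibronectin, was at 267697 with ETEC alone, 242859 after TL2937 and 249948 after TL2766, with differences of -0.14 and -0.10. SPARC, a collagen-binding secreted protein, was at 58675, 52317 and 52618, with differences of -0.17 and -0.16, and each of its 7 probes was lower in both comparisons, although some of them overlap in sequence. BGN, biglycan, was at 776, 672 and 681, with differences of -0.21 and -0.19. DCN, decorin, was at 59.1, 55.6 and 57.0, with differences of -0.088 and -0.052, and its other 4 probes were not measured on any array. With the mean over all 5 DCN probes the differences were 0.21 and 0.37, of the opposite sign. The medians of the group were -0.15 and -0.13.

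By their brightest probes the measured MMPs lay within 1.2-fold of the ETEC array, except for MMP7. MMP7, matrilysin, an epithelial protease that cuts matrix proteins and activates defensins in the mouse gut, was at 27.6 with ETEC alone, 16.4 after TL2937 and 15.1 after TL2766. The ETEC array was the highest. With TL2937 the difference was -0.75 (1.69-fold lower, scanner error 0.35). On the TL2766+ETEC array MMP7 was not well above background, and the ETEC value was 1.83-fold the value there (scanner error 0.38). MMP7 has 1 probe, close to the lowest measured intensity, and under the background correction with an added constant its TL2937 difference was -0.33. The gelatinases MMP2 and MMP9, which cut denatured and type IV collagen, were at 41767, 38434 and 40923 and at 444, 439.8 and 465. Their differences were -0.12 and -0.029 for MMP2 and -0.013 and 0.067 for MMP9. The second MMP9 probe was not measured on any array, and with the mean over both the MMP9 differences were 0.57 and -0.045, each of the opposite sign. The membrane-bound MMP14, a collagenase that activates MMP2, was at 7027, 7465 and 6676 and differed by 0.087 and -0.074. MMP16, a membrane-bound MMP as well, was at 259, 306 and 272, highest with TL2937, and differed by 0.24 and 0.070. The gene that the array names MMP25 was at 117, 103 and 101 and differed by -0.19 and -0.21, with both of its probes lower in both comparisons. Its dimmer probe differed by -0.36 and -0.36, beyond 1.2-fold. MMP19 was at 81.4, 82.9 and 76.7 and differed by 0.028 and -0.085, the first of which changed sign under 2 of the 4 other scalings.

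MMP11, stromelysin-3, was at 513, 556 and 499 by its brightest probe and differed by 0.12 and -0.038. Its 5 measured probes ranged from -0.032 to 0.45 with TL2937 and from -0.60 to 0.29 with TL2766, so they gave no common direction. The collagenase MMP1, the stromelysin MMP3, the macrophage elastase MMP12 and the membrane-anchored MMP17 were not measured. The MMP median was 0.0075 with TL2937, changing sign under 3 of the 4 other scalings, and -0.038 with TL2766.

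TIMP1, an inhibitor of most MMPs, was at 41751 with ETEC alone, 41841 after TL2937 and 48943 after TL2766. It was highest with TL2766 and alike on the other two arrays. Its log2 differences were 0.23 for TL2766+ETEC against ETEC and 0.23 for TL2766+ETEC against TL2937+ETEC. All 3 TIMP1 probes were higher on the TL2766+ETEC array in both, although the dimmer ones share 56 bases. These differences are about the size of the scanner error of 0.20. TIMP2, which also takes part in MMP2 activation, was at 1239.5, 1116 and 1150.2, highest on the ETEC array, with differences of -0.15 and -0.11.

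ADAMTS1, a secreted protease that cuts the proteoglycans versican and aggrecan, was the only measured ADAMTS member. It stood at 43.3 with ETEC alone, 59.4 after TL2937 and 62.8 after TL2766, lowest without lactobacilli. The differences were 0.46 and 0.54 (1.37-fold and 1.45-fold, scanner errors 0.24 and 0.24). Its second probe gave 0.43 with TL2937 and 0.065 with TL2766. Under the background correction with an added constant the differences were 0.13 and 0.17. ADAMTS5, which lies near ADAMTS1 on chromosome 13 in assembly Sscrofa11.1, ADAMTS16 and ADAMTS20 were not measured. LAMA4, the alpha chain of laminins found in vessel and muscle basement membranes, was at 10634 with ETEC alone, 11112 after TL2937 and 10534 after TL2766, with differences of 0.063 and -0.014.

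**Figure D3:**
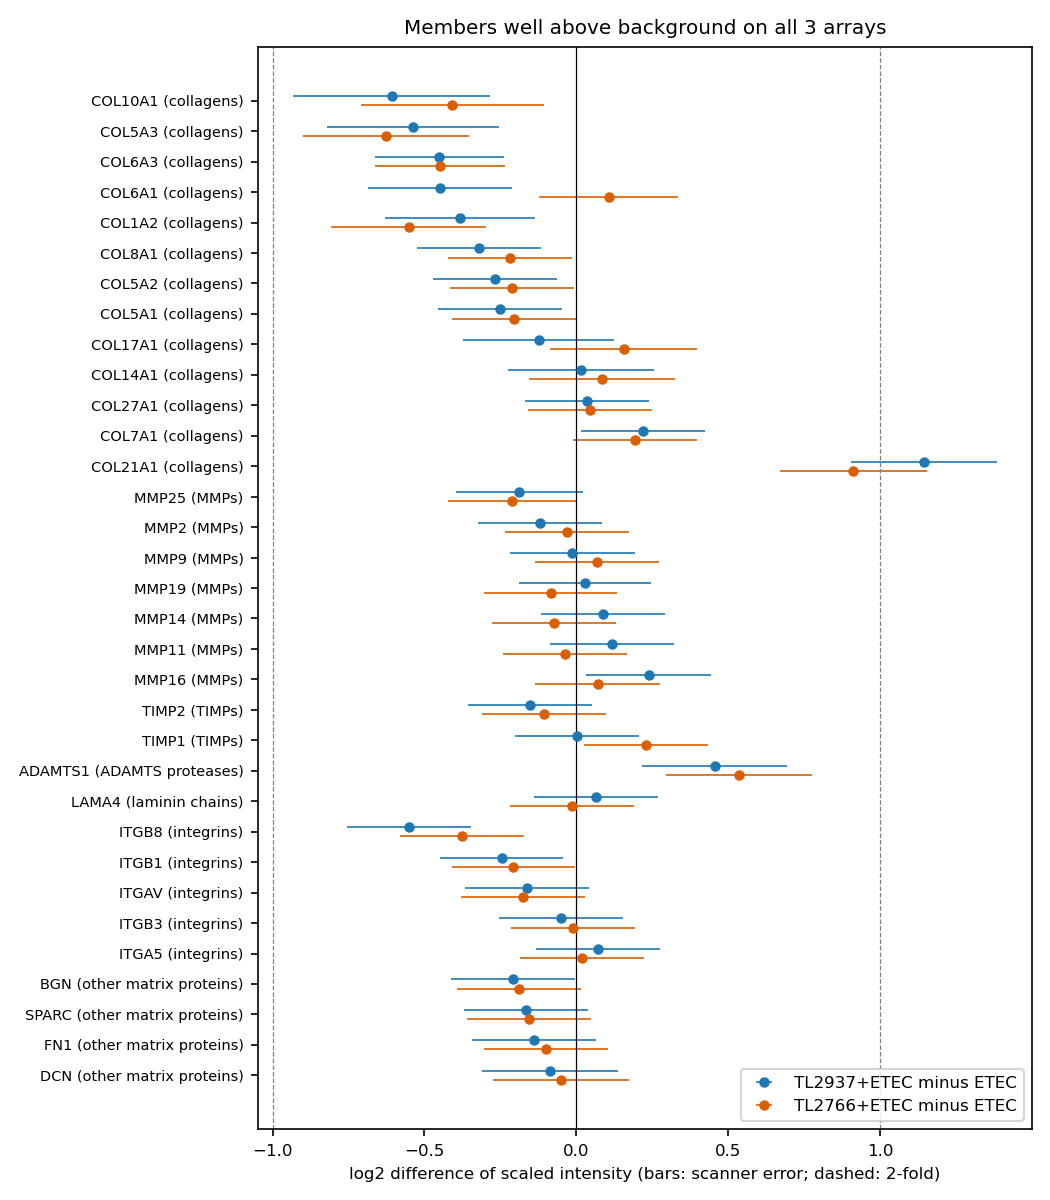
Log2 difference from the ETEC array (horizontal axis) of the 33 members well above background on all 3 arrays (vertical axis, ordered by family), in blue for TL2937+ETEC and in orange for TL2766+ETEC. Bars are the scanner software's error of the pair of signals, and dashed lines mark 2-fold. Most collagens lie to the left of 0 and COL21A1 to the right, and most MMP bars reach 0.

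Among the integrin receptors, ITGB8 differed most by its brightest probe. ITGB8, the beta chain of the receptor alphaV-beta8 that activates latent TGF-beta, was at 4556 with ETEC alone, 3109.7 after TL2937 and 3509 after TL2766. It was highest without lactobacilli and lowest with TL2937, with differences of -0.55 and -0.38 (1.47-fold and 1.30-fold lower, scanner error 0.20). The second ITGB8 probe was lower too, at -0.36 and -0.23. ITGAV, its alpha partner, was at 8935, 7989 and 7905, with differences of -0.16 and -0.18, and all 5 probes were lower in both comparisons. ITGB1, the beta chain that the collagen, laminin and many fibronectin receptors share, was at 98225, 82804 and 85099.7, with differences of -0.25 and -0.21. All 6 ITGB1 probes were lower in both comparisons, although some of them overlap in sequence. ITGA5, the alpha chain of the classical fibronectin receptor, was at 5159.5, 5421 and 5227 by its brightest probe and differed by 0.071 and 0.019. Its other 2 probes were higher by 0.23 and 0.59 with TL2937 and by 0.24 and 0.56 with TL2766.

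ITGB3, the beta chain of the vitronectin receptor and of the platelet receptor for fibrinogen, was read differently by its 2 probes. The brighter was at 499172 with ETEC alone, 481803 after TL2937 and 495058 after TL2766, nearly level, with differences of -0.051 and -0.012, and each of these changed sign under 2 of the 4 other scalings. The dimmer was at 630.0 with ETEC alone, 1497 after TL2937 and 1299 after TL2766, lowest without lactobacilli. Its differences were 1.25 and 1.04 (2.38-fold and 2.06-fold higher). The brighter probe shares at least 16 bases with 12 probes of other names, among them probes named RPL32 and ALG2, and the longest run is the 30 bases printed with the sequences. The CYP24A1-named probe that shares this run lists 3 RefSeq messenger RNAs, including that of ITGB3, and was itself at 573074, 550682 and 565686. Only 4 of the 51 members, ITGB3, ITGB8, MMP14 and MMP25, had a brightest probe that shares 16 bases with a probe of another name, the other 3 with 1 such probe each. Whether the bright signal comes from ITGB3 was not tested.

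Counted probe by probe, the dimmer ITGB3 probe joined COL21A1 past 2-fold. With TL2937 74 member probes were measured on both arrays, and 2 of them were at least 2-fold higher, against 0.267% of all probes, and with TL2766 1 of 73, the ITGB3 probe, against 0.34%. No member probe was 2-fold lower in either (0.306% and 0.344% of all probes). The 5 integrin genes measured on all 3 arrays had a median of -0.16 and -0.18 by their brightest probes. ITGB1BP2 was above the flag on the TL2937+ETEC array alone, at 16.1. The leukocyte chains ITGAL, ITGB2 and ITGA4, the fibrillar collagen receptor chain ITGA11 and the epithelial chain ITGB6 were not measured.

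**Figure D4:**
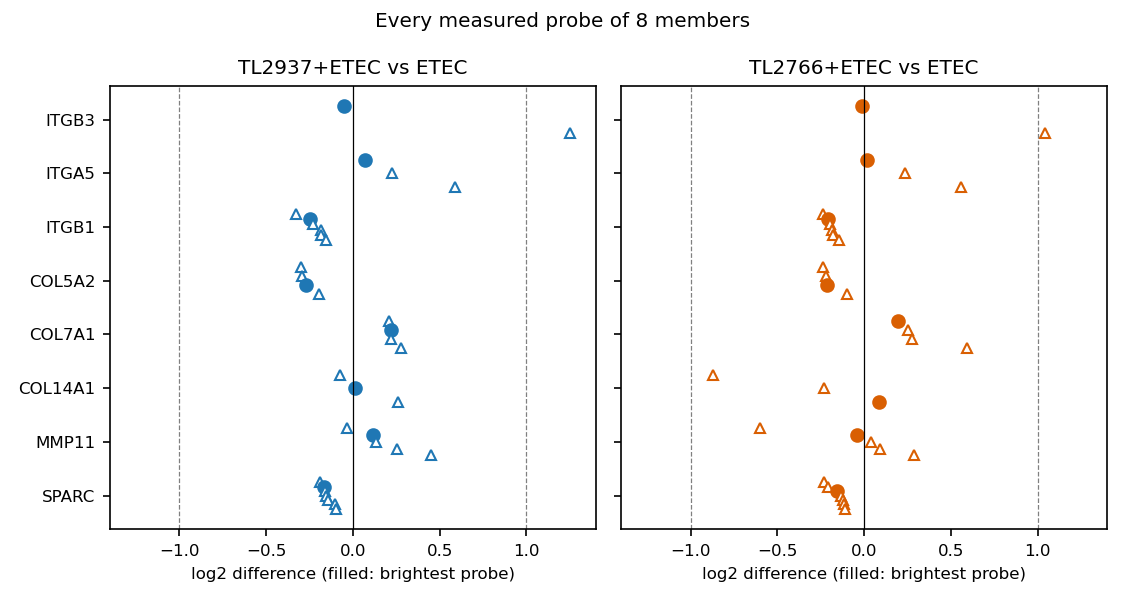
Log2 difference from the ETEC array (horizontal axis) of every measured probe of 8 members (vertical axis), for TL2937+ETEC on the left and TL2766+ETEC on the right. Filled circles are the brightest probes, open triangles the other probes, and dashed lines mark 2-fold. The probes of ITGB1, COL5A2 and SPARC lie together below 0 and those of COL7A1 above it, while the ITGB3 probes lie more than 1 log2 unit apart and MMP11 and COL14A1 spread over both sides with TL2766.

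The lactobacillus arrays differed little from each other. COL6A1 was 1.47-fold higher and COL17A1 1.21-fold higher with TL2766 than with TL2937, where 7.14% of all genes were at least 1.2-fold higher. No member was 1.2-fold lower, against 4.15% of all genes, and 31 of 33 members lay within 1.2-fold, against 88.7%. The COL6A1 difference of 0.56 was the only member difference over 2 scanner errors here, a limit that 2.86% of all genes passed. Against ETEC, the members over 2 scanner errors were COL21A1, COL6A3, ITGB8 and MMP7 with TL2937 (6.79% of all genes), and COL21A1, COL6A3, COL1A2, COL5A3 and ADAMTS1 with TL2766 (5.46%).

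Among enzymes that make and crosslink collagen, P4HA1, LOX and LOXL4 were lower with both strains. Of 21 listed genes 8 were on the array. The counts for this list and those that follow stand beside the 12.3% and 8.95% of all genes at least 1.2-fold lower with TL2937 and TL2766 and the 7.24% and 8.06% at least 1.2-fold higher, and the list medians beside -0.041 and 0.00086. With TL2937 3 of 6 measured genes were at least 1.2-fold lower and none was higher (median -0.29), and with TL2766 3 of 7 were lower and none higher (median -0.17). P4HA1, a proline hydroxylase that stabilises the triple helix, was at 7099 with ETEC alone, 5011 after TL2937 and 5339 after TL2766 and differed by -0.50 and -0.41, although its 8 probes ranged from -0.56 to 0.13 with TL2937. LOX, lysyl oxidase, which crosslinks collagen and elastin, was at 50216, 36346 and 39991, highest without lactobacilli, and differed by -0.47 and -0.33. Its relative LOXL4 was at 44.2, 34.8 and 32.0 and differed by -0.34 and -0.47. LOXL3 was at 22.3, 11.0 and 23.2 and was not well above background on the TL2937+ETEC array. This puts the ETEC value at least 1.93-fold higher, with scanner error left out. The lysine hydroxylase PLOD2 differed by -0.23 and -0.17. The collagen chaperone SERPINH1 and the procollagen protease BMP1 lay close to 0, with SERPINH1 at -0.0056 and -0.072 and BMP1 at -0.022 and 0.037.

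Other matrix glycoproteins and proteoglycans went both ways. Of 33 listed genes 17 were on the array, and 13 were measured in each comparison. With TL2937 4 of these were at least 1.2-fold higher (7.24% of all genes) and 3 were lower (12.3%), with a median of 0.087. With TL2766 4 were higher (8.06%) and 4 lower (8.95%), with a median of -0.087. SMOC1, a calcium-binding protein of basement membranes, was at 272 with ETEC alone, 835 after TL2937 and 852 after TL2766, differing by 1.62 and 1.65. MGP, matrix Gla protein, an inhibitor of calcification, was at 11667, 15066 and 18238 and differed by 0.37 and 0.64, with all 5 of its probes higher. SPP1, osteopontin, and THBS1, thrombospondin-1, both integrin ligands, were lower on both lactobacillus arrays. SPP1 was at 14212, 9451 and 9527, with differences of -0.59 and -0.58. THBS1 was at 113619, 76337 and 81218, with differences of -0.57 and -0.48. All 4 probes of each were lower in both comparisons.

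Some of these genes crossed the flag, and their at-least folds leave out the scanner error of both signals. POSTN, periostin, was not well above background on the ETEC array and was above it on the others, at 10.8, 24.9 and 33.4, or at least 1.94-fold and at least 2.60-fold higher with TL2937 and TL2766. The proteoglycan VCAN, versican, a substrate of ADAMTS1, was at 8.91, 16.3 and 26.1, below the flag on the ETEC array, or at least 1.27-fold and at least 2.03-fold higher. FMOD, fibromodulin, a collagen-binding proteoglycan, was the reverse, at 34.6, 3.84 and 3.96, above the flag on the ETEC array alone and there at least 3.00-fold and at least 2.94-fold higher than with TL2937 and TL2766. VCAN and FMOD have 1 probe each, as has SMOC1, and 2 of 6 POSTN probes were measured on the lactobacillus arrays.

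Of receptors other than integrins and proteins that link integrins to actin, 7 were at least 1.2-fold lower with TL2937. Of 33 listed genes 17 were on the array and 16 were measured. With TL2937 none was higher (median -0.17), and with TL2766 3 were lower and 1 higher (median -0.085). VCL, vinculin, which ties integrins to actin, was at 41667 with ETEC alone, 29415 after TL2937 and 31688 after TL2766, with differences of -0.50 and -0.39 and all 5 probes lower. TLN1, talin, which activates integrins, was at 15884, 12694 and 13323 and differed by -0.32 and -0.25. The proteoglycan receptor SDC2 was at 3154, 2354 and 2507, with differences of -0.42 and -0.33, and the collagen receptor DDR1 was at 406, 311 and 335, with differences of -0.38 and -0.28. The hyaluronan receptor CD44 was at 2131, 2366 and 2687, highest with TL2766, and differed by 0.15 and 0.33. Of the 6 endothelial markers, TEK and KDR were at least 1.2-fold higher with both strains, TEK at 1339.9, 2419 and 2189 and KDR at 532, 798 and 753. With TL2937 VWF was lower, at 22.7 with ETEC alone and 15.5, while PECAM1, CDH5 and CLDN5 lay within 1.2-fold in both comparisons, and the list's median was -0.069 with TL2937 and 0.099 with TL2766. The part of these markers in the matrix differences was not tested.

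**Figure D5:**
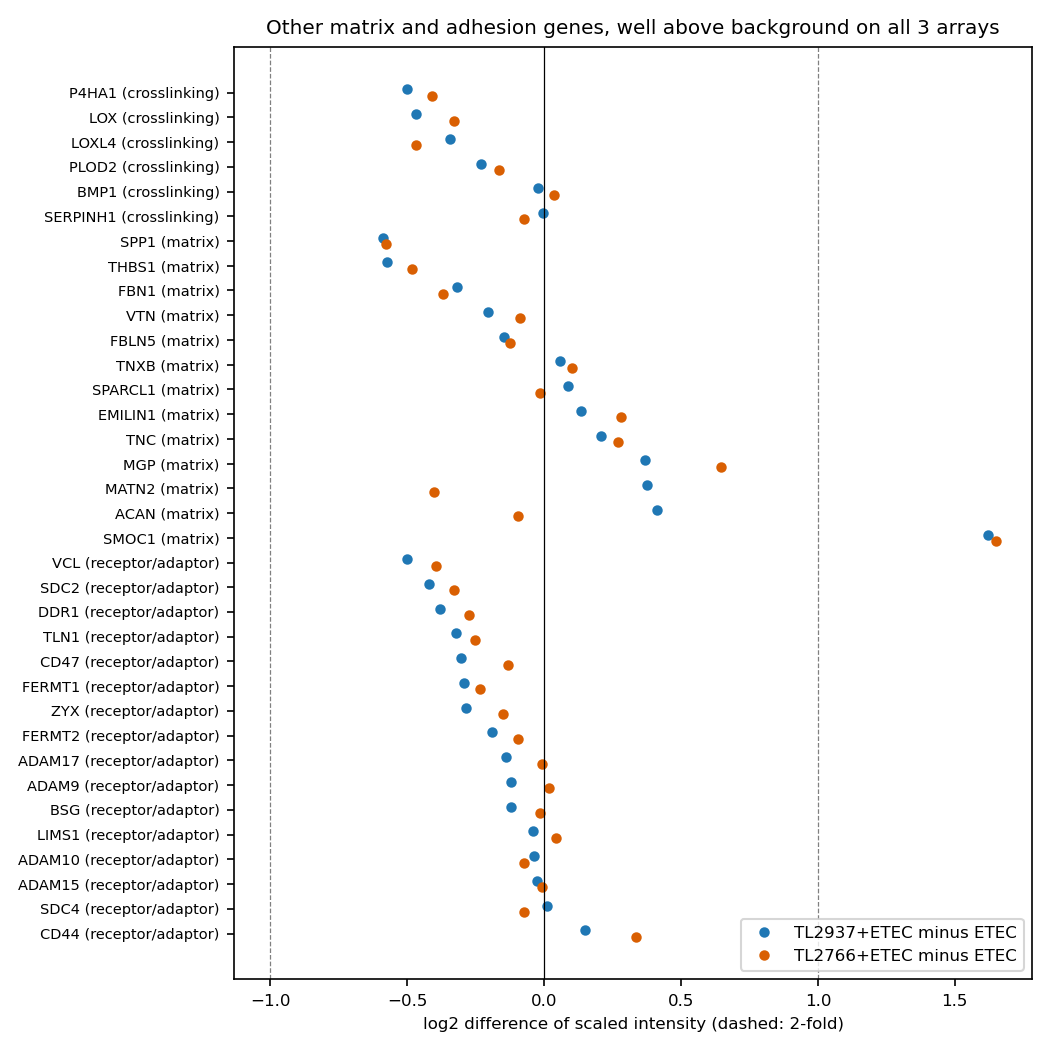
Log2 difference from the ETEC array (horizontal axis) of the other matrix and adhesion genes that were well above background on all 3 arrays (vertical axis, grouped by list), in blue for TL2937+ETEC and in orange for TL2766+ETEC. Dashed lines mark 2-fold. Most crosslinking enzymes, receptors and adaptors lie at or to the left of 0, and SMOC1 is the gene beyond 2-fold.

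The 14 genes of the same name pattern that the array lists by number had medians of -0.022 and -0.093 over the 8 measured. COL4A1, a chain of basement-membrane collagen, was at 137885 with ETEC alone, 127989 after TL2937 and 128786 after TL2766 and differed by -0.11 and -0.10. The laminin chain LAMB1 was at 16241, 14133 and 14684 and differed by -0.20 and -0.15. ADAMTS4, like ADAMTS1 a protease of versican and aggrecan, was at 1529, 2041 and 2501, lowest without lactobacilli, and differed by 0.42 and 0.71. ADAMTS2, which trims procollagen, was at 26.3, 17.6 and 19.1, highest without lactobacilli, and differed by -0.59 and -0.46. LUM was at 41.1, 51.2 and 32.4 by its brightest probe, and its 4 probes measured on both arrays ranged from -0.29 to 0.32 with TL2937 and from -0.50 to 0.88 with TL2766.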

How the data were processed

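RNA of 3 cultures was measured on 1-colour Agilent porcine arrays, from 200 ng of RNA each, per the labels' protocols. Agilent Feature Extraction 10.7.3.1 computed a background-corrected processed intensity per spot, per the file headers, and the deposited mean and background intensities are those before subtraction. The authors' deposited table of values holds these intensities too, rounded to within 0.496%, on a linear scale without centring (medians 37, 40.9 and 38.8). Here log2 processed intensity minus each array's 75th percentile (459, 503 and 481) was used. Control spots and 4 to 9 outlier spots per array were left out, and spots of a probe were averaged. Scaled intensities are multiplied by 481, the mean percentile. Names came from the array, while RefSeq's gene table for Sscrofa11.1 named 72 probes through synonyms, 1056 through accessions and 2846 through gene numbers. Of the member symbols, 50 of 51 were in that table.

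A call needed a 2-fold difference with both arrays well above background. A bound set the brighter value against the higher of the dim value and the lowest measured intensity of that array, with scanner error left out. Members, lists and pathway genes were chosen with earlier results of these data known. Named members were those at 1.5-fold, the 3 of each family that differed most, members whose probes disagreed, and all small families; pathway genes were named for the size of their difference. Alternatives were normexp background correction (offset 50), median, quantile, cyclic loess and detected-probe scaling, the authors' table, probe means, other filters and folds of 1.5 and 3. Folds of 1.2, genes named by number, single probes and the limit of 2 scanner errors were added after seeing the data. The steps were tested on simulated data. The simulated noise was the same for every spot, so calls of dim genes, whose errors are larger, were not checked. R 4.3.3 with limma 3.58.1 and Python 3.11.15 with pandas 2.3.3, numpy 2.4.6 and matplotlib 3.10.9 were used. The value of 1 marker gene is not reported here.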

Additional observations from a re-analysis of the deposited data

How the results depend on the processing

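No paired analysis was possible because each group had 1 array and all carried the same replicate number. The median over all members kept its sign against ETEC under the 12 alternatives tried, from -0.16 to -0.084 with TL2937 and from -0.12 to -0.045 with TL2766, while the median between the lactobacillus arrays changed sign under some scalings. Under the other scalings, the authors' table and with outlier spots kept, the family medians moved by less than the spread of replicate spots and the 2-fold counts did not change. With the normexp correction the collagen medians were -0.17 and -0.10 with TL2937 and TL2766, the ADAMTS values 0.13 and 0.17, and the count of members 2-fold higher with TL2937 was 0. With the mean over probes that count was 0, the collagen median with TL2766 was 0.041, and ADAMTS was 0.30 with TL2766 and -0.14 between the lactobacillus arrays. Without a background filter ADAMTS was -0.22 and 0.13, 2 members were 2-fold higher and 2 lower with TL2937, 1 higher and 1 lower with TL2766, and 2 higher between the lactobacillus arrays. With a filter at the median detected signal the TL2937 count was 0, as at 3-fold. At 1.5-fold 2 members were lower with TL2937, and 1 was higher and 1 lower with TL2766. At 1.2-fold the counts were 2 higher and 9 lower with TL2937, 2 higher and 5 lower with TL2766, and 2 higher between the lactobacillus arrays. With genes named by number added, the laminin median was -0.047 with TL2937 and 0.055 between the lactobacillus arrays, and the integrin medians were -0.051 and -0.088. The normexp correction adds an offset, which shrinks differences of dim probes; other causes were not tested. With 1 array per group the number of arrays limits every value, and dim members such as COL10A1 and MMP7 lie near background.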
